A study of Homo sapiens with 23 samples.

Results

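A549 is an established human lung adenocarcinoma cell line, and the comparison described here is that of A549 cells transfected with an siRNA against *THUMPD3* (siD3 #3 in the study's design, siTHUMPD3 in the labels) with A549 cells transfected with a control siRNA (siControl). Its members are the 5 of 23 samples of the series that the sample labels assign to these groups, 3 of siD3 #3 and 2 of siControl, all harvested 5 days after treatment began. The labels call them biological replicates. The methods name 3 for each condition where the labels give 2 of siControl, and the reason is not given in the sources used here. In the labels the siRNA groups differ by the siRNA alone, and other differences in culture or preparation cannot be told from them. All 5 samples are bulk RNA from a single cell line, and the knockdown used a single siRNA sequence. The other samples hold shRNA knockdowns of the same gene (shD3 #1 and shD3 #4) from a doxycycline-inducible vector, with controls of their own and harvest after 6 days, and are used only where the siRNA response is set beside theirs.

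THUMPD3 is a methyltransferase that, together with the small activator protein TRMT112, places m2G (N2-methylguanosine) on tRNAs. The genes described below belong mostly to the division cycle. The p53 protein induces *CDKN1A*, whose product p21 inhibits cyclin-dependent kinases, the retinoblastoma family of pocket proteins then stays active, and genes of DNA replication and mitosis are held down through E2F sites and through paired CCAAT and CHR elements (TTTGAA) in their promoters. Histone genes of the replication-dependent class are transcribed while DNA is copied, and their mRNAs are lost when copying stops. A549 cells lack *CDKN2A*.

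Ribosomal RNA was removed from total RNA before directional libraries were made, and the values are reads counted per gene. The siControl libraries held 18141512 and 13535327 counts, and the siD3 #3 libraries 22101059, 19117117 and 19205896. Levels are given as cpm, the count scaled to a common library size, after TMM normalisation, which adjusts library sizes for composition. Differences between groups are log2 fold changes from edgeR's quasi-likelihood test on the counts, siD3 #3 over siControl, and a call needed both a change of at least 1.5-fold and an adjusted p (Benjamini-Hochberg) under 0.05. *MT-RNR2*, the mitochondrial large ribosomal RNA, was the most abundant gene of every library and took 21.9% to 24.1% of siControl counts and 25.5% to 31.2% of siD3 #3 counts. Between 24708 and 25425 genes had a count in siControl and 28266 to 29746 in siD3 #3, where the libraries were also deeper. All 9 epithelial and A549 markers were detected, and *CDKN2A* had no count in any of the 5 libraries. In cpm of the unadjusted library size, the summed level of 8 fibroblast markers was 4.96 to 7.61 in siControl and 8.42 to 12.3 in siD3 #3, that of 5 endothelial markers 0.148 to 0.386 against 2.09 to 2.31, and that of 6 leukocyte markers 0.22 to 0.222 against 0.573 to 0.837. *LUM* and *KDR*, from the fibroblast and endothelial lists, were called higher, the leukocyte marker *CD3E* was at 0 in all 5 libraries, and the part of such cells in any result was not tested. The call of *KDR* was lost without siControl replicate 1 or 2, with an adjusted p of 0.0752 to 0.161. Replicate 3 of siD3 #3 stood apart from the other two: 228 and 225 of 11033 genes differed from it by 2-fold, where replicates 1 and 2 differed in 1 gene and the siControl pair in 69. Where leaving it out changes the call of a gene named below, that is said beside the gene.

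*THUMPD3*, the gene the siRNA targets, checks the labels and lies on chromosome 3 at 9362971 to 9386791 of GRCh38, on the plus strand. Its level was 65.7 and 68.5 cpm in the siControl libraries and 11.6, 12.4 and 10.5 cpm in siD3 #3, from 1206 and 989 counts against 245, 218 and 211. The groups were far apart, and the knockdown libraries lay close to each other. The mean fell from 67.1 ± 2.00 cpm (SD, n = 2) to 11.5 ± 0.972 cpm (SD, n = 3), which leaves 17.1% of the control level, a log2 fold change of -2.54 (0.10 SE, edgeR adjusted p = 6.88e-06). The exact two-sided permutation test over the 10 assignments of the 5 libraries gave p = 0.1, the smallest it can give with 3 against 2. *THUMPD3* ranked 222nd of 17032 genes from the lowest fold change. Its antisense neighbour *THUMPD3-AS1*, whose gene overlaps it, was at 39.4 and 37.3 cpm in siControl and 41.8, 40.5 and 45.4 cpm in siD3 #3 and was not called (0.15, adjusted p = 0.258). Whether strand was used in counting is not given in the sources used here, so reads of the overlap cannot be assigned between them with certainty.

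The other m2G enzymes were not called. *THUMPD2*, which acts on U6 snRNA, had a log2 fold change of -0.31 (adjusted p = 0.164), and *TRMT11*, a second tRNA methyltransferase, -0.11 (adjusted p = 0.598). *TRMT112*, the activator shared by these enzymes, was at 101 and 99.2 cpm in siControl and 78.3, 77 and 73.4 cpm in siD3 #3. Every knockdown library lay below both controls, and the change of -0.39 (adjusted p = 0.0082) was under 1.5-fold. *METTL5*, an rRNA methyltransferase that also needs *TRMT112*, was at -0.49 (adjusted p = 0.0166). *THUMPD3* was the single member called among the 10 genes of this list.

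**Figure D1:**
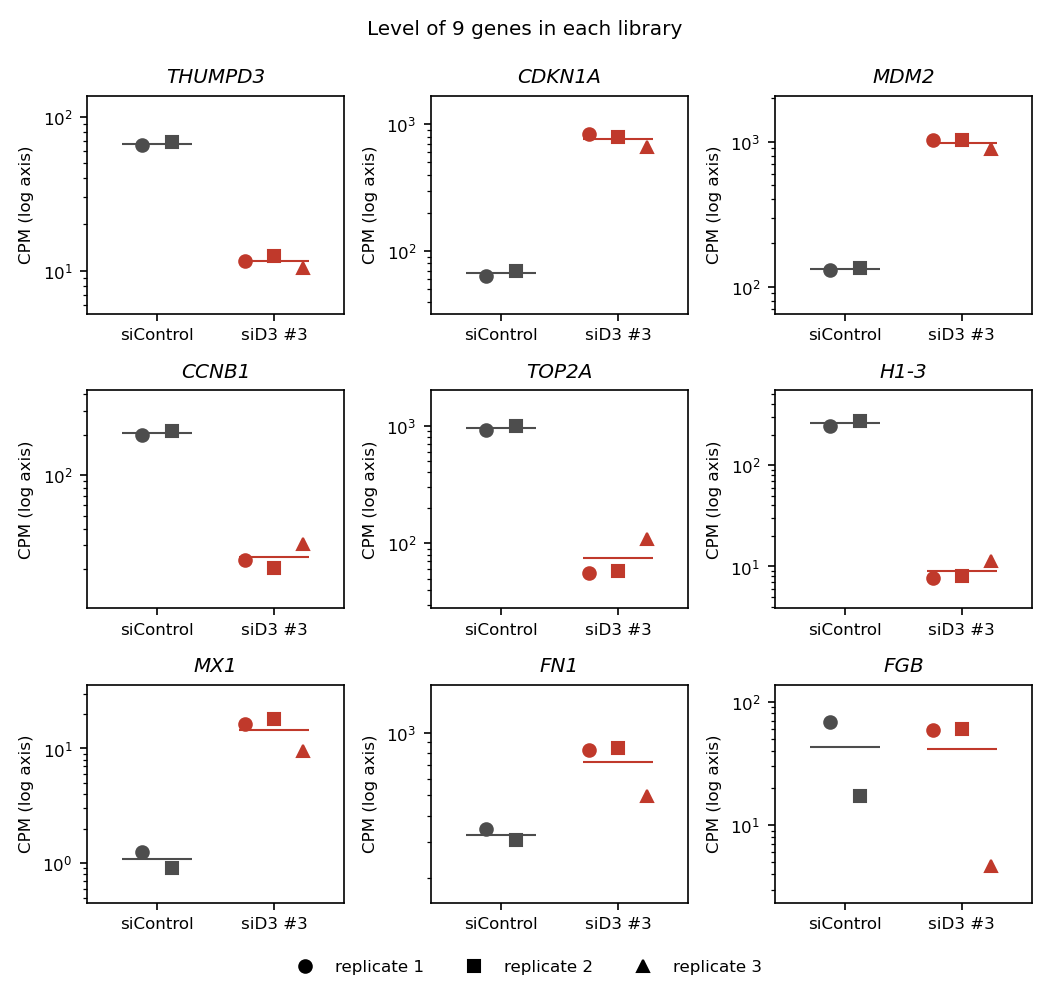
Level of 9 genes in each library, in cpm on a log axis that differs between panels. Each marker is a library, its shape gives the replicate number, grey marks siControl, red siD3 #3, and the lines are group means. *THUMPD3*, *CCNB1*, *TOP2A* and *H1-3* are lower in every siD3 #3 library, *CDKN1A*, *MDM2*, *MX1* and *FN1* are higher in every one, and *FGB* is low in siD3 #3 replicate 3 alone among the knockdown libraries.

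Depletion of THUMPD3 by siD3 #3 was accompanied by a change in a large part of the transcriptome. Of 17032 genes tested, 2135 (12.5%) were higher and 1604 (9.42%) were lower in siD3 #3. The change was at least 2-fold for 1338 of the higher and 787 of the lower genes, and at least 8-fold for 249 and 141. The libraries of the groups did not overlap for 3738 of the 3739 genes called. Over all genes tested, every siD3 #3 library lay above both controls for 5193 (30.5%) and below both for 5019 (29.5%). The median over all genes tested was 0.03 on the log2 scale. Without siControl replicate 1 the count of higher genes was 1324, and without siControl replicate 2 it was 1230, each with the lone control library assumed to vary like the knockdown libraries. Protein-coding genes made up 1767 of the higher and 1438 of the lower genes (13321 tested), and long non-coding RNAs 285 and 110 (2639 tested).

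**Figure D2:**
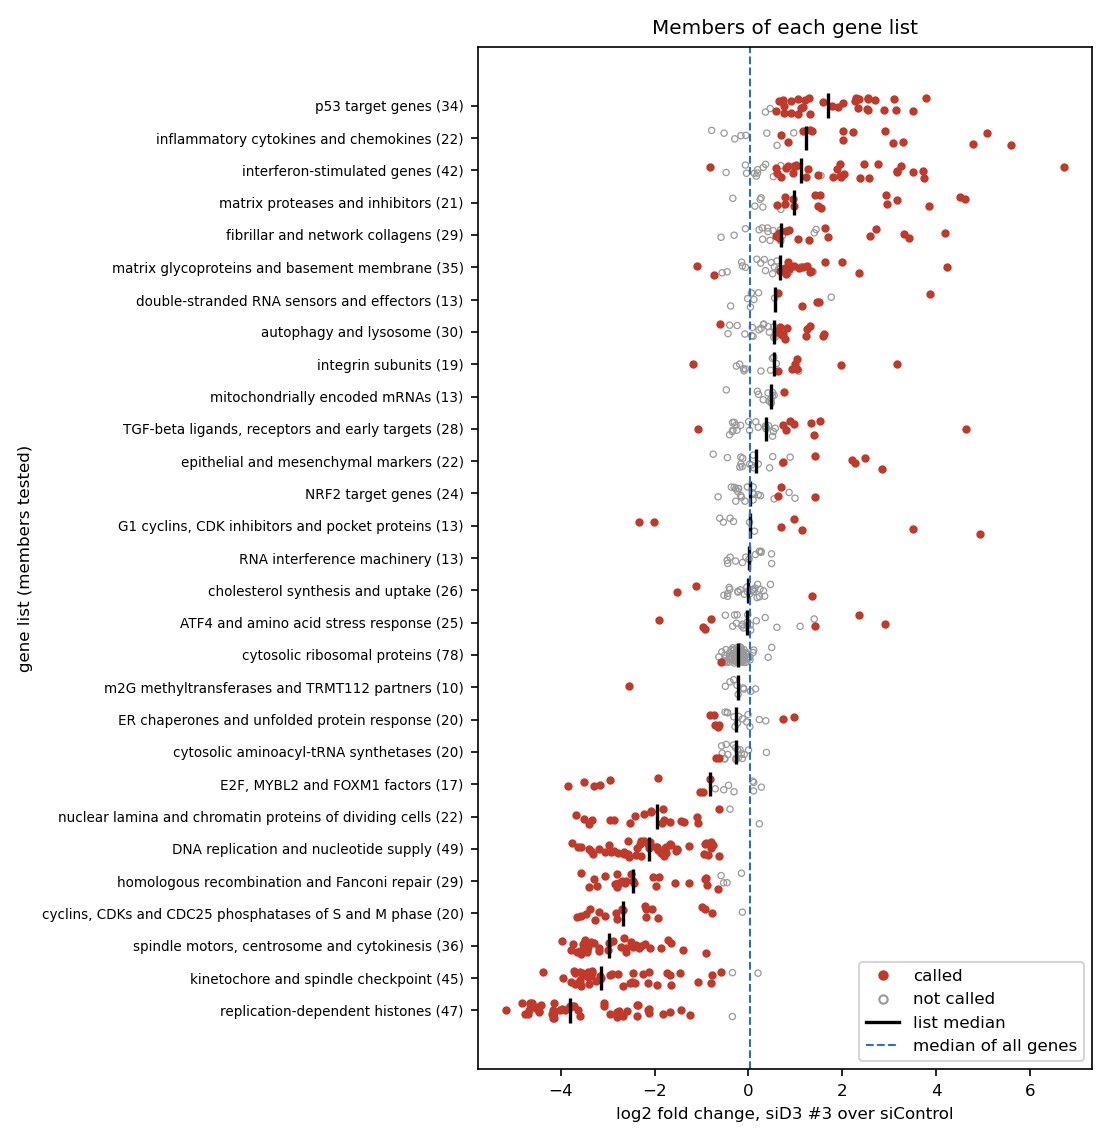
Log2 fold change, siD3 #3 over siControl, of each tested member of 29 gene lists, sorted by list median. Each point is a gene, red points passed both thresholds, black bars are list medians, and the dashed line is the median of all genes (0.03). Histones, mitotic genes and replication genes lie to the left, and p53 targets, cytokines and interferon-stimulated genes to the right.

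Genes of mitosis fell together. Of 45 kinetochore and spindle checkpoint genes, 43 fell (95.6%, against 9.42% of all genes). The list median was -3.14 on the log2 scale against 0.03 over all genes. By role, 16 of 16 centromere proteins, 12 of 13 outer kinetochore proteins, 6 of 6 members of the chromosomal passenger complex and 9 of 10 checkpoint proteins fell. *NDC80*, a microtubule-binding subunit of the outer kinetochore, was at 23.1 and 23.2 cpm in siControl and 0.755, 0.799 and 1.74 cpm in siD3 #3, a log2 fold change of -4.38 (0.28 SE, adjusted p = 3.94e-05). Its partner *SPC24* fell from 44.1 and 44.1 cpm to 3.07, 2.68 and 2.74 cpm (-3.96, 0.12 SE, adjusted p = 3.92e-06). *SPC25*, of the same complex, and *SKA3*, which couples it to microtubules, fell by 3.79 and 3.71 on the log2 scale. All of these were lower in each knockdown library by several-fold. *CDC20*, the activator of the anaphase-promoting complex, was at 85 and 84.8 cpm in siControl and 4.76, 6.17 and 9.66 cpm in siD3 #3 (-3.63, 0.24 SE, adjusted p = 3.99e-05). The smallest called changes were those of the checkpoint proteins *BUB3* (-0.77) and *ZW10* (-0.59) and of the kinetochore protein *PMF1* (-0.80). *MIS12* (-0.34, adjusted p = 0.054) and *MAD1L1* (0.20, adjusted p = 0.813), the latter under 1 cpm in each library, did not pass. The call of *PMF1* was lost without siControl replicate 1 and that of *ZW10* without siControl replicate 2 or siD3 #3 replicate 1 or 2, with an adjusted p of 0.0637 or a change under 1.5-fold.

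All 36 genes of the spindle, centrosome and cytokinesis list fell (against 9.42% of all genes), with a median of -2.98. They include 12 kinesin motors, whose median was -3.49, 14 spindle assembly factors (-2.77), 6 factors of centriole duplication (-2.25) and 4 of cytokinesis (-2.90). *DLGAP5*, which stabilises kinetochore fibres, was at 99.4 and 113 cpm in siControl and 5.05, 6.22 and 8.96 cpm in siD3 #3 (-3.97, 0.20 SE, adjusted p = 1.29e-05). The motors *KIF15*, which keeps spindle poles apart, and *KIFC1*, which clusters them, fell by 3.79 and 3.75 on the log2 scale. The least changed members were *BORA* (-1.65), an activator of the kinase *PLK1*, and the microtubule-binding proteins *TACC3* (-1.39) and *CKAP5* (-0.91).

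The cyclins that drive S phase and mitosis fell with their kinases. In the list of cyclins, CDKs, CDC25 phosphatases and their degradation factors, 19 of 20 members fell (95%, against 9.42% of all genes), with a median of -2.68. *CCNA2* (cyclin A2) was at 114 and 115 cpm in siControl and 7.97, 7.14 and 12.2 cpm in siD3 #3 (-3.65, 0.20 SE, adjusted p = 1.62e-05). *CCNB1* (cyclin B1) was at 198 and 214 cpm in siControl and 23.2, 20.4 and 30.6 cpm in siD3 #3 (-3.05, 0.16 SE, adjusted p = 1.46e-05), and *CDK1*, its kinase, at 134 and 137 against 11.3, 9.54 and 18 cpm (-3.39). In each of these the knockdown libraries lay far below either control, and replicate 3 was the highest of the knockdown libraries. *CCNB2* (cyclin B2) fell by 3.57, the ubiquitin-conjugating enzyme *UBE2C* by 3.47, *CDC25A*, a phosphatase that activates CDKs, by 2.68, and *WEE1*, the kinase that inhibits *CDK1*, by 1.00 on the log2 scale. *CCNE1* (cyclin E1), which acts before S phase, was the exception, at 37.1 and 33.1 cpm in siControl and 31.7, 32 and 32.6 cpm in siD3 #3 (-0.13, adjusted p = 0.329). Its paralogue *CCNE2* fell by 2.21. Because these are bulk samples, fewer cells in S phase and mitosis and less of each mRNA per dividing cell cannot be told apart.

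Promoters of the mitotic genes and histones are shown because members of these lists moved together. The sequences come from RefSeq promoter windows on GRCh38.p14, given 5′ to 3′ on the strand of the gene, with matches to CCAAT or TTTGAA in capitals. The window of *CCNB2* is chr15:59105046-59105145 (plus strand), that of *CDC20* chr1:43358881-43358980 (plus strand) and that of the histone gene *H4C13* chr6:27873535-27873634 (minus strand), each the 100 bases before the transcription start.
CCNB2: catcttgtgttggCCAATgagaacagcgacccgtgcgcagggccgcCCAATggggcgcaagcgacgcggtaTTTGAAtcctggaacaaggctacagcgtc
CDC20: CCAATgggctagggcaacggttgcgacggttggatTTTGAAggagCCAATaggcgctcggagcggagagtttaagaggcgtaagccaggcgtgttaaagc
H4C13: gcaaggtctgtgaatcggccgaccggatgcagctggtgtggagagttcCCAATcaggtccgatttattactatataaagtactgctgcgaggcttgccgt
In *CCNB2* the CCAAT matches begin 87 and 54 bases before the start and TTTGAA 29 bases before it. In *CDC20* CCAAT begins 100 and 55 bases and TTTGAA 65 bases before the start, and in *H4C13* CCAAT begins 52 bases before it. Over the 250 bases before the start, CCAAT on either strand was present in 62 of the 82 mitotic genes with a window (75.6%, of 101 listed), and in 49 of 57 replication-dependent histone genes (86.0%, of 62 listed), against 37.0% of all 27305 genes. The share was as high in lists that did not fall as groups: 18 of 19 genes of the endoplasmic reticulum list (94.7%), 16 of 19 cholesterol genes (84.2%) and 9 of 12 RNA interference genes (75.0%), with 5, 2 and 0 members called lower. TTTGAA on either strand was present in 33 of the 82 mitotic genes (40.2%) and 18 of the 57 histone genes (31.6%), against 16.1% of all genes, and in 2 of 40 replication genes (5.0%). In the printed windows no CCAAT match overlaps a TTTGAA match. The shares are descriptions, and a match is not a measured binding site.

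Genes of DNA replication fell as a whole list. All 49 members that make, start or supply DNA synthesis were called lower (against 9.42% of all genes), with a median of -2.12. They were 12 licensing factors with a median of -2.65, 10 origin firing factors (-2.20), 20 polymerase and clamp genes (-1.80) and 7 genes of nucleotide supply (-1.79). *MCM10*, which joins the helicase to the polymerase, was at 89.3 and 80.8 cpm in siControl and 4.91, 4.80 and 8.91 cpm in siD3 #3 (-3.77, 0.24 SE, adjusted p = 3.47e-05). *GINS2* and *CDC45*, the other parts of the active helicase, fell by 3.64 and 3.57, and *TK1* (thymidine kinase) by 3.39 on the log2 scale. *PCNA*, the sliding clamp and also a p53 target, was at 313 and 289 cpm in siControl and 167, 164 and 145 cpm in siD3 #3 (-0.92, 0.10 SE, adjusted p = 0.000422). The smallest changes were those of *TYMS* (-0.79) and *DCTPP1* (-0.75), which supply and clean the nucleotide pool, and of *RPA1* (-0.62), which coats single-stranded DNA. The call of *RPA1* was lost without siControl replicate 1 or siD3 #3 replicate 1, with an adjusted p of 0.0707 or a change under 1.5-fold.

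Replication-dependent histones held the largest decreases. Of 62 genes listed, 47 passed the filter on low counts and 46 of them fell (97.9%, against 9.42% of all genes), with a median of -3.80. The 46 were 4 of 4 H1, 10 of 10 H2A, 14 of 14 H2B, 8 of 9 H3 and 10 of 10 H4 genes. All 12 protein-coding genes with the lowest fold change, among those at 5 cpm or more in the higher group, were histones: *H4C13*, *H1-3*, *H2BC10*, *H4C9*, *H2AC16*, *H2BC14*, *H3C12*, *H1-5*, *H3C7*, *H2BC17*, *H2AC12* and *H2BC13*. *H4C13* was at 42.2 and 53.3 cpm in siControl and 1.18, 1.03 and 1.74 cpm in siD3 #3, a 36.3-fold decrease of the mean (-5.16, 0.20 SE, adjusted p = 6.88e-06). The linker histone *H1-3* was at 244 and 273 cpm in siControl and 7.74, 8.05 and 11.4 cpm in siD3 #3 (-4.83, 0.17 SE, adjusted p = 4.67e-06), and *H2BC10* at 77.3 and 88.2 against 3.16, 2.63 and 3.29 cpm (-4.76). The range within the class was wide. *H1-2*, another linker histone, fell from 324 and 356 cpm to 74.4, 73.3 and 82.4 cpm (-2.15), and *H3C6*, at 15.2 and 16 cpm in siControl and 13, 12.3 and 11.6 cpm in siD3 #3, was the member not called (-0.34, adjusted p = 0.0616). Copies of these genes are nearly identical, so reads may be split between them. The kit removes ribosomal RNA and does not select for poly(A), so mRNAs without a tail can be counted.

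Genes of homologous recombination and the Fanconi anaemia pathway, which repair broken and crosslinked DNA during S phase, fell in 25 of 29 cases (30 listed). This is 86.2% against 9.42% of all genes, with a list median of -2.47. *EXO1*, a nuclease, was at 69.8 and 67.3 cpm in siControl and 3.92, 4.05 and 9.16 cpm in siD3 #3 (-3.58, 0.31 SE, adjusted p = 0.000144). The motor protein *RAD54L* and the helicase *BLM* fell by 3.39 and 3.29, and *BRCA2* and *FANCD2*, which act at damaged forks and breaks, by 2.81 and 2.80 on the log2 scale. *RAD51C*, *RAD51D*, *PALB2* and *FANCF* did not pass, with values of -0.58, -0.53, -0.46 and -0.15. *RAD51C* was just under the fold threshold and was called lower without replicate 3 (-0.61), siD3 #3 replicate 2 (-0.60) or siControl replicate 1 (-0.62), and *RAD51D* without siControl replicate 2 (-0.62). Chromatin and lamina proteins of dividing cells fell in 20 of 22 cases (90.9%, against 9.42% of all genes), with a median of -1.96. *TOP2A*, the mitotic topoisomerase, was at 921 and 995 cpm in siControl and 55.8, 58.1 and 109 cpm in siD3 #3 (-3.69, 0.28 SE, adjusted p = 8.08e-05). *MKI67*, the Ki-67 proliferation antigen, went from 324 and 259 cpm to 21.3, 24.2 and 40.5 cpm (-3.34), and *LMNB1* (lamin B1) from 114 and 115 cpm to 11.7, 11.3 and 21.1 cpm (-2.96). *HMGB2*, a DNA-bending protein, fell by 2.42 and the condensin subunit *NCAPH* by 3.52. *LMNA* (lamin A) was at 0.23 (adjusted p = 0.22), and *HMGA2* did not pass either, except without replicate 3 (-1.40, adjusted p = 1.2e-05).

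Of the transcription factors that control these genes, 9 of 17 fell (52.9%, against 9.42% of all genes). *E2F1*, an activator of S phase genes, was at 40.5 and 37.1 cpm in siControl and 4.53, 5.25 and 5.38 cpm in siD3 #3 (-2.94, 0.12 SE, adjusted p = 6.88e-06). *FOXM1*, the activator of G2 and M phase genes, was at 63.7 and 62.8 against 5.19, 5.71 and 10.1 cpm (-3.17, 0.24 SE, adjusted p = 8.16e-05). *E2F8*, *E2F2* and *MYBL2* fell by 3.84, 3.50 and 3.28, and the subunits *LIN9* of the MuvB core and *TFDP1*, the E2F partner, by 1.93 and 0.98 on the log2 scale. The 8 that did not pass ranged from -0.71 for *MYBL1* to 0.27 for *LIN37*. For *MYBL1* the libraries of siD3 #3 disagreed, at 7.88, 9.59 and 20.4 cpm against 19.8 and 21.5 cpm in siControl, and likewise for *E2F7*, at 11.6, 12.9 and 21.4 cpm against 20.9 and 23.2 cpm. In these genes replicate 3 sat at the control level and replicates 1 and 2 below it. Without replicate 3 both were called lower, *MYBL1* at -1.25 (adjusted p = 6.66e-05) and *E2F7* at -0.86 (adjusted p = 0.00034), and 11 of the 17 factors fell.

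The G1 regulators moved in both directions. *CDKN1A*, which encodes the CDK inhibitor p21, was at 64.1 and 69.6 cpm in siControl and 837, 795 and 659 cpm in siD3 #3, an 11.4-fold increase of the mean (3.51, 0.15 SE, adjusted p = 6.88e-06). Of 13 tested members of this list (15 listed), 5 rose (38.5%, against 12.5% of all genes) and 2 fell (15.4%, against 9.42%). *CCND1* (cyclin D1), whose complex with *CDK4* or *CDK6* starts the inactivation of the pocket proteins, was at 246 and 216 cpm in siControl and 480.0, 496 and 389 cpm in siD3 #3 (0.98, adjusted p = 0.00134). *CDK6* rose by 0.68 and the inhibitor *CDKN1C* (p57) by 1.15. *CCND2* (cyclin D2) had 1 count in siControl and 67 in siD3 #3, a ratio of 35.1 per unadjusted library size (exact interval 6.09 to 1408). Ratios of counts below are formed in the same way, and such intervals cover counting error only. The pocket protein *RBL1* (p107) fell by 2.34 and the inhibitor *CDKN2C* (p18) by 2.02, while *RB1* (-0.32) and *CDK4* (-0.54) stayed under 1.5-fold. Without siControl replicate 1, siControl replicate 2 or siD3 #3 replicate 3, 3 members were higher. The call of *CDK6* was lost without siControl replicate 1 or 2 or siD3 #3 replicate 3 and that of *CDKN1C* without siControl replicate 1 or 2 or siD3 #3 replicate 1 or 3, with an adjusted p of 0.0595 to 0.232 or a change under 1.5-fold.

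Targets of p53 rose as a group. Of 34 tested (35 listed), 32 rose (94.1%, against 12.5% of all genes), with a median of 1.69 against 0.03 over all genes. All 34 lay above both controls in every siD3 #3 library, against 30.5% of all genes. Of genes that stop the cell cycle 8 of 9 rose, of those of cell death 12 of 12, and of those of feedback and repair 12 of 13. *MDM2*, the ubiquitin ligase that degrades p53, was at 130.3 and 135 cpm in siControl and 1033, 1022 and 885 cpm in siD3 #3, a 7.4-fold increase of the mean (2.89, 0.12 SE, adjusted p = 6.88e-06). *TP53INP1*, which promotes p53 phosphorylation and autophagy, was at 5.01 and 8.04 cpm in siControl and 94.3, 88.2 and 85.3 cpm in siD3 #3 (3.79, 0.19 SE, adjusted p = 1.09e-05). *BTG2*, an antiproliferative factor of mRNA decay, rose by 3.13. The 3 knockdown libraries were close to each other in each of these genes. *FAS*, a death receptor, was at 26.6 and 23.9 cpm in siControl and 150.3, 145 and 142 cpm in siD3 #3 (2.53, 0.10 SE, adjusted p = 6.71e-06). The BH3-only protein *BBC3* (PUMA) rose by 2.34, the oxidoreductase *TP53I3* by 2.27 and *SESN1*, which restrains mTORC1, by 2.54. The smallest called increases were those of *TNFRSF10A* (0.60), a TRAIL receptor, of the apoptosis effector *BAX* (0.65), which was at 58.9 and 65.5 cpm in siControl and 96.1, 99.4 and 98 cpm in siD3 #3, and of *ZNF79* (0.74). *DDB2* (0.36) and *CCNG1* (0.46) stayed under 1.5-fold, and *CCNG1* was called without siControl replicate 2 (0.59). The calls of *BAX* and *ZNF79* were lost without siControl replicate 1 and that of *TNFRSF10A* without siControl replicate 2 or siD3 #3 replicate 3, with an adjusted p of 0.0504 to 0.11 or a change under 1.5-fold.

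Interferon-stimulated genes rose in part. Of 42 tested (45 listed), 29 rose (69%, against 12.5% of all genes) and 1 fell (2.38%, against 9.42%). The list median was 1.12, also with *XAF1* set to its ratio over a floor of 3 counts. Of antiviral effectors 22 of 34 rose and 1 fell, and of signal and transcription genes 7 of 8 rose. *MX1*, a GTPase that blocks viral replication, was at 1.25 and 0.901 cpm in siControl and 16.5, 17.9 and 9.51 cpm in siD3 #3 (3.73, 0.36 SE, adjusted p = 0.000254). *TRIM22*, a ubiquitin ligase that is also a p53 target, was at 2.40 and 2.42 cpm in siControl and 35, 39 and 21.1 cpm in siD3 #3 (3.71, 0.31 SE, adjusted p = 0.000119). *IFIT1*, which binds foreign RNA caps, was at 2.94 and 3.39 against 20.7, 25.8 and 10.2 cpm (2.58). In all of these the knockdown libraries lay above the controls, and replicate 3 was the lowest of them. *XAF1*, a proapoptotic protein, had no count in either control and 18, 16 and 8 counts in siD3 #3. Its ratio was 7.34 over a floor of 3 counts in the controls together, and the exact interval from the counts starts at 5.71. *RSAD2* (viperin) rose by 3.50, from 5 counts in siControl in all. *USP18*, which removes *ISG15* and dampens the interferon receptor, was the member that fell, at 8.50 and 8.80 cpm in siControl and 5.61, 4.63 and 4.38 cpm in siD3 #3 (-0.82, 0.17 SE, adjusted p = 0.00856). Among the transcription factors *IRF1* was at 19.1 and 17 cpm in siControl and 40.9, 39.7 and 49.5 cpm in siD3 #3 (1.26, adjusted p = 0.00039), *IRF7* rose by 1.23, *IRF9* by 0.80 and *STAT2* by 0.59. The GTPases *GBP2* and *GBP3* rose by 1.94 and 1.88. The genes of type I and type III interferons, *IFNB1* and *IFNL1* to *IFNL3*, had too few counts to be tested. Without siControl replicate 2, 19 members were called higher. The calls of *IRF9* and *STAT2* were lost without siControl replicate 1 or 2 or siD3 #3 replicate 1 or 2, that of *USP18* without siControl replicate 2 and that of *XAF1* without siControl replicate 1, with an adjusted p of 0.0504 to 0.169 or a change under 1.5-fold.

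The interferon-stimulated response element was searched for as GAAA, 2 bases of any kind and GAAA, on either strand. It was present in the 250 bases before the start of 22 of the 35 interferon-stimulated genes with a window (62.9%), against 3.71% of all genes, and in 0 of 27 p53 targets. The window of *IFIT1* is shown because it carries 2 such matches. It spans chr10:89392473-89392572 (GRCh38.p14, plus strand), 150 to 51 bases before the start, and the capitals mark the matches, which read TTTC, 2 bases and TTTC on this strand and begin 116 and 103 bases before the start.
IFIT1: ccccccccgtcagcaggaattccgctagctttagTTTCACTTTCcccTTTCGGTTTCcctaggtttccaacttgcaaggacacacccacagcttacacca

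Of the double-stranded RNA sensors and effectors, 5 of 13 tested (17 listed) rose (38.5%, against 12.5% of all genes), with a median of 0.56. *RIGI*, the sensor of RNA with a 5′ triphosphate, was at 1.53 and 2.15 cpm in siControl and 4.95, 4.34 and 5.83 cpm in siD3 #3 (1.47, adjusted p = 0.00357). *IFIH1* (MDA5), the sensor of long duplexes, rose by 1.15 and the endosomal receptor *TLR3* by 1.51. *ZBP1*, a sensor of left-handed duplexes, had 1 count in siControl and 32 in siD3 #3, a ratio of 16.8 (exact interval 2.80 to 683). *EIF2AK2* (PKR), *ADAR*, *MAVS* and *DHX58* did not pass. Without siControl replicate 2, 3 members were called. The call of *ZBP1* was lost without siControl replicate 1 or 2, with an adjusted p of 0.0935 to 0.214. The machinery of RNA interference, through which an siRNA acts, was not called in any of its 13 members by edgeR or by DESeq2. At an unadjusted edgeR p under 0.05, 3 of the 13 members were higher and 4 lower, beside 3873 and 3673 of all 17032 genes. The ends were *TNRC6B* (0.49), a partner of Argonaute, and *DGCR8* (-0.45), which acts with Drosha.

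Part of the matrix transcripts rose. Of 29 collagens tested (39 listed) 14 rose (48.3%, against 12.5% of all genes), with a median of 0.69. Of 35 matrix glycoproteins and basement membrane genes tested (39 listed) 15 rose (42.9%) and 2 fell (5.71%, against 9.42%), with a median of 0.68. *COL17A1*, a hemidesmosome collagen, was at 1.58 and 1.18 cpm in siControl and 33.5, 34.1 and 8.81 cpm in siD3 #3 (4.18, 0.67 SE, adjusted p = 0.00292). Replicate 3 was well below the other knockdown libraries and above both controls. *COL6A3*, a chain of the beaded filament collagen VI, rose by 3.43 and *COL15A1*, of the basement membrane, by 3.31, both from fewer than 1 cpm in siControl. The matrix genes *FN1*, *LAMB3*, *FBN1* and *TNC* were taken up by the study from its RNA-seq, which includes these samples. Their values are therefore not independent evidence. By quantitative PCR after siRNA depletion the study reported each of them significantly higher, *TNC* included, and by western blot lower protein for *FN1*, *TNC* and *LAMB3*. Whether the same samples were used for PCR is not given. *FN1* (fibronectin) was at 344 and 306 cpm in siControl and 828, 848 and 495 cpm in siD3 #3 (1.16, 0.23 SE, adjusted p = 0.0072). *LAMB3*, the beta chain of laminin-332, was at 26.5 and 12.3 against 93.2, 94.7 and 115 cpm (2.36, 0.28 SE, adjusted p = 0.00075), and *FBN1* (fibrillin-1) at 15.9 and 20.2 against 78.1, 73.7 and 63.3 cpm (2.00, 0.14 SE, adjusted p = 6.35e-05). *TNC* (tenascin-C) did not pass, at 8.44 and 7 cpm in siControl and 7.69, 7.82 and 21.6 cpm in siD3 #3 (0.68, adjusted p = 0.289), and its fold change is 0.01 below 0 on the log2 scale without replicate 3. *LAMA1* (laminin alpha 1) had 1 count in siControl and 41 in siD3 #3, a ratio of 21.5 (exact interval 3.65 to 869). *ELN* (elastin, -1.10) and *FBLN1* (fibulin-1, -0.73) fell. Without siControl replicate 2, 8 collagens and 9 glycoproteins were higher. The calls of *FN1* and *LAMA1* were lost without siControl replicate 2, that of *ELN* without siControl replicate 1 or 2 or siD3 #3 replicate 1, 2 or 3 and that of *FBLN1* without siControl replicate 1 or 2 or siD3 #3 replicate 1 or 2, with an adjusted p of 0.0663 to 0.274.

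Among the integrins, the cell surface receptors of the matrix, 7 of 19 tested (20 listed) rose and 1 fell, with a median of 0.54. These were 36.8% and 5.26% of the list, against 12.5% and 9.42% of all genes. *ITGA9* had 3 counts in siControl and 52 in siD3 #3, a ratio of 9.09 (exact interval 2.94 to 45.5). *ITGB3*, the beta chain of the vitronectin receptor, was at 1.03 and 1.32 cpm in siControl and 2.74, 2.46 and 8.52 cpm in siD3 #3 (1.97, adjusted p = 0.0438), and *ITGB8*, which activates latent TGF-beta, at 12.6 and 8.11 against 22.9, 21.8 and 19.7 cpm (1.04). *ITGA2B*, the platelet integrin chain, fell by 1.19. *ITGB1*, the most widely shared chain, was at -0.07 (adjusted p = 0.691). The number of integrins called higher was 3, 2 and 4 without siControl replicate 1, siControl replicate 2 and siD3 #3 replicate 2. The call of *ITGA2B* was lost without siControl replicate 1 or 2 or siD3 #3 replicate 1, that of *ITGA9* without siControl replicate 1 and that of *ITGB3* without siControl replicate 1 or 2, with an adjusted p of 0.0646 to 0.211.

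Of 21 matrix proteases and inhibitors tested (26 listed), 15 rose (71.4%, against 12.5% of all genes), with a median of 0.98. All 6 inhibitors rose, and so did 7 of 12 metalloproteinases and 2 of 3 genes of the plasminogen system. Among the inhibitors, *TIMP3* rose by 3.84, *SERPINE2* by 1.42, *TIMP1* by 0.77, *TIMP2* by 0.77 and *TIMP4* by 0.61. *MMP7* (matrilysin) was at 95.6 and 76.3 cpm in siControl and 298, 283 and 142 cpm in siD3 #3 (1.49, adjusted p = 0.00819), lowest in replicate 3, and the gelatinases *MMP2* and *MMP9* rose by 2.95 and 3.17. Of the genes nearly silent in siControl, *MMP1* (interstitial collagenase) had 2 counts against 98, a ratio of 25.7 (exact interval 6.92 to 215), and *MMP25* 1 against 50, a ratio of 26.2 (exact interval 4.49 to 1056). Without siControl replicate 1, 8 members were higher, and without siControl replicate 2, 7. The calls of *MMP1* and *MMP25* were lost without siControl replicate 1 or 2, that of *MMP7* without siControl replicate 2, that of *MMP9* without siControl replicate 1 or 2 or siD3 #3 replicate 2 and that of *TIMP4* without siControl replicate 1 or 2 or siD3 #3 replicate 1 or 2, with an adjusted p of 0.0567 to 0.225.

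Secreted inflammatory genes rose in 14 of 22 cases (30 listed), which is 63.6% against 12.5% of all genes, with a median of 1.24. They were 7 of 11 chemokines and 7 of 11 cytokines. *CXCL8* (interleukin-8), a neutrophil chemokine, was at 34.9 and 17.7 cpm in siControl and 93.2, 90.3 and 139 cpm in siD3 #3 (2.02, 0.30 SE, adjusted p = 0.00214). *CCL2* and *CSF1*, which attract and maintain macrophages, rose by 1.17 and 1.36. The genes with the largest ratios were nearly silent in siControl. *CCL5* had 1 count against 106, a ratio of 55.6 (exact interval 9.76 to 2215), *IL1A* 1 against 75, a ratio of 39.3 (exact interval 6.84 to 1573), and *CCL20* 2 against 111, a ratio of 29.1 (exact interval 7.87 to 243). In these 3 genes replicate 3 held most of the counts. *IL6* was at 0.163 and 0.277 cpm in siControl and 0.849, 1.31 and 2.84 cpm in siD3 #3 (2.92, adjusted p = 0.0176). The smallest called increase was that of *IL18* (0.69). Without siControl replicate 1 and without siControl replicate 2, 8 and 9 members were higher. The calls of *CCL20*, *IL1A* and *IL6* were lost without siControl replicate 1 or 2, that of *CCL5* without siControl replicate 1 and that of *IL18* without siControl replicate 2, with an adjusted p of 0.0507 to 0.131.

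In the TGF-beta list 8 of 28 members rose (28.6%, against 12.5% of all genes) and 1 fell (3.57%, against 9.42%), with a median of 0.37. Among the ligands *INHBA* (activin A) was at 0.0545 and 0.208 cpm in siControl and 1.70, 1.77 and 6.17 cpm in siD3 #3, highest in replicate 3 (4.64, adjusted p = 0.00967). *GDF15*, a stress cytokine and p53 target, was at 49.9 and 33.4 cpm in siControl and 111, 107 and 97.5 cpm in siD3 #3 (1.33, adjusted p = 0.000878). *BMP2* and *TGFB2* rose by 1.39 and 0.73, *INHBB* fell by 1.08, and *TGFB1*, *TGFB3* and *BMP4* did not pass. The receptor *TGFBR2* rose by 0.80 and the matricellular target *CCN2* by 0.89. Of 22 epithelial and mesenchymal markers (28 listed), 6 rose (27.3%, against 12.5% of all genes), 3 of each kind, with a median of 0.16. The mesenchymal markers were *ACTA2* (smooth muscle actin), at 4.25 and 6.10 cpm in siControl and 27.5, 30.6 and 27.6 cpm in siD3 #3 (2.48, adjusted p = 5.1e-05), *TAGLN* (2.20) and the repressor *SNAI2* (2.26). The epithelial markers were the claudins *CLDN4* (2.84) and *CLDN1* (0.74) and the keratin *KRT19* (1.41). *VIM* (vimentin, 0.02) and *CDH1* (E-cadherin, 0.52) did not pass, and *CDH1* was at 153, 148 and 71.1 cpm in siD3 #3 against 86.2 and 87 cpm in siControl, lowest in replicate 3. Without replicate 3 *CDH1* was called higher, at 0.79 (adjusted p = 3.73e-05). The calls of *CCN2* and *INHBA* were lost without siControl replicate 1 or 2, that of *CLDN1* without siControl replicate 2 or siD3 #3 replicate 2 or 3 and that of *INHBB* without siControl replicate 1, with an adjusted p of 0.0548 to 0.195 or a change under 1.5-fold.

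Genes of translation, stress and metabolism moved less. Of 78 cytosolic ribosomal protein genes, *RPS2* was the single one called (-0.59), which is 1.28% against 9.42% of all genes. Of the same 78, 41 lay below both controls in every siD3 #3 library against 29.5% of all genes, with a list median of -0.23. Of 20 cytosolic aminoacyl-tRNA synthetases, which charge tRNAs, *FARSB* (-0.69) and *TARS1* (-0.63) fell, which is 10% against 9.42% of all genes. Of the same 20, 16 lay below both controls in every siD3 #3 library against 29.5% of all genes, with a list median of -0.27. In the *ATF4* list 3 of 25 members (26 listed) rose (12%, against 12.5% of all genes) and 4 fell (16%, against 9.42%), with a median of -0.03. *ATF4* itself was at -0.24 (adjusted p = 0.11), while the stress factors *ATF3* and *DDIT3* (CHOP) rose by 2.91 and 1.41 and *SESN2*, also a p53 target, by 2.36. The 4 that fell make serine and one-carbon units or phosphoenolpyruvate in mitochondria. They were *PHGDH*, at 28.5 and 28.5 cpm in siControl and 5.71, 7.54 and 9.61 cpm in siD3 #3 (-1.90, adjusted p = 0.00033), *MTHFD2* (-0.98), *PCK2* (-0.93) and *SHMT2* (-0.79). The call of *RPS2* was lost without siControl replicate 1 or 2 or siD3 #3 replicate 1 or 3 and that of *TARS1* without siControl replicate 2 or siD3 #3 replicate 1, with an adjusted p of 0.0504 to 0.1 or a change under 1.5-fold.

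In the list of the endoplasmic reticulum 5 of 15 chaperones fell, which is 25% of the 20 members against 9.42% of all genes. Among them were *HSP90B1* (-0.82), *SDF2L1* (-0.73) and *PDIA4* (-0.71). *DNAJB9* (0.97) and the sensor *ERN1* (IRE1, 0.74) rose, which is 10% of the members against 12.5% of all genes. Of 26 cholesterol genes 2 fell (7.69%, against 9.42% of all genes), among them the sterol isomerase *EBP* (-1.13). The sterol reductase *TM7SF2* (1.35) was the 1 that rose (3.85%, against 12.5%). Of 24 NRF2 targets, *HMOX1* (haem oxygenase 1) was at 57.5 and 78.4 cpm in siControl and 175, 179 and 192 cpm in siD3 #3 (1.42, adjusted p = 0.000269), and *TXNRD1* (0.70) and *OSGIN1* (0.62) rose as well, in all 12.5% of the list, the same share as over all genes. Of 13 mitochondrially encoded mRNAs *MT-ND3*, a complex I subunit, was called (0.76), which is 7.69% against 12.5% of all genes. In this list 10 lay above both controls in every siD3 #3 library, against 30.5% of all genes. Autophagy and lysosome genes rose in 12 of 30 cases (40%, against 12.5% of all genes), with a median of 0.54. In this list *GLA* (-0.61) was the 1 that fell (3.33%, against 9.42%). Those that rose were led by *GABARAPL1* (1.61) and *MAP1LC3B* (1.59), ubiquitin-like proteins of the autophagosome, and by *CTSS* (1.31), a lysosomal protease. Several of these small counts rest on single libraries. Of the endoplasmic reticulum list 2 members in place of 5 fell without siControl replicate 1. *RPS2* gave way to 0 to 4 ribosomal genes, *MT-ND3* to 0 to 5 mitochondrial mRNAs and the 3 NRF2 targets to 1 to 6 when a library was left out. The calls of *ERN1* and *TXNRD1* were lost without siControl replicate 2, that of *GLA* without siControl replicate 1 or siD3 #3 replicate 1 or 2, that of *MT-ND3* without siControl replicate 1 or 2, that of *OSGIN1* without siControl replicate 2 or siD3 #3 replicate 1 or 2, that of *RPS2* without siControl replicate 1 or 2 or siD3 #3 replicate 1 or 3 and that of *SDF2L1* without siControl replicate 1, with an adjusted p of 0.0504 to 0.109 or a change under 1.5-fold.

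The 12 protein-coding genes with the highest fold change, among those at 5 cpm or more in siD3 #3 with no overlap between groups, were nearly silent in siControl. *DRAXIN*, a secreted axon guidance protein, was at 0 and 0.277 cpm in siControl, 4 counts in all, and 7.97, 6.85 and 7.57 cpm in siD3 #3 (5.85, 0.53 SE, adjusted p = 0.000173). *NTN1* (netrin-1), another guidance cue and survival ligand, was at 0.327 and 0.346 against 10.4, 9.31 and 12 cpm (4.95, 0.27 SE, adjusted p = 1.62e-05). *PLXNB3*, a semaphorin receptor, was at 0.436 and 0.624 against 8.07, 7.37 and 8.17 cpm (3.90). These 3 are genes of axon guidance, chosen for mention after their values were seen, and their knockdown libraries lay close together. The others were the sodium channel *SCN2A* (5.14), the cytokine *TNFSF14* (5.12), the adhesion protein *NECTIN4* (4.48), the transcription factors *MAF* (4.20) and *HES2* (3.90), *COL17A1*, the secreted protein *PIP* (4.16), *ICAM1* (3.89), which binds leukocyte integrins, and *CEACAM7* (3.86). *PIP*, *CEACAM7* and *COL17A1* were lower and *ICAM1* higher in replicate 3 than in the other knockdown libraries. The call of *CEACAM7* was lost without siControl replicate 1 or 2 or siD3 #3 replicate 1 or 2 and that of *PIP* without siControl replicate 1 or 2, with an adjusted p of 0.0661 to 0.181.

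Replicate 3 of siD3 #3 differed from replicates 1 and 2 in a set of genes of its own. Among 11324 genes at 5 cpm or more in either group, 77 were at least 2-fold higher and 151 at least 2-fold lower in replicate 3 than in the mean of the other two. The genes named here were chosen after their values were seen. Among those low in it were genes of secreted plasma proteins. *FGB*, the beta chain of fibrinogen, was at 58.4, 59.7 and 4.68 cpm in siD3 #3 and 68.2 and 17.3 cpm in siControl. *FGA*, the alpha chain, was at 121, 121 and 17.9 against 71.8 and 23.9 cpm, and *CP* (ceruloplasmin) at 112, 115 and 16.4 against 38 and 17.7 cpm. In these genes siControl replicate 2 also lay below siControl replicate 1. *LCN2* (lipocalin-2), at 52.3, 57.1 and 9.21 cpm in siD3 #3 and 8.39 and 3.05 cpm in siControl, showed the same order. *VGF*, a secreted neuropeptide precursor, was at 6.84, 6.62 and 32.6 against 4.36 and 4.50 cpm, and *HMGA2*, an architectural chromatin protein, at 12.4, 13.5 and 51.6 against 31.3 and 36.8 cpm. Both were highest in replicate 3, and for *HMGA2* the libraries of siD3 #3 lay on either side of the controls. None of *FGB*, *FGA*, *CP*, *VGF*, *HMGA2* and *EREG* was called with all 5 libraries. Without replicate 3, *FGA* (1.31, adjusted p = 0.0124), *CP* (2.00, adjusted p = 0.000153) and *VGF* (0.60, adjusted p = 0.0184) were called higher and *HMGA2* (-1.40) and the growth factor *EREG* (-1.01, adjusted p = 0.000475) lower, *VGF* also without siD3 #3 replicate 1 (2.16). Of the 151 genes, 21 were called higher and 9 lower in siD3 #3, and of the 77, 13 higher and 19 lower. The cell cycle lists also sat closer to the control level in replicate 3: the list median of the log2 ratio of replicate 3 to the mean of replicates 1 and 2 was 0.48 for kinetochore genes, 0.54 for spindle genes, 0.25 for replication genes, 0.18 for histones, -0.05 for p53 targets and -0.37 for interferon-stimulated genes. Without replicate 3, 4110 genes were called, of which 3411 were among the 3739, each in the same direction. What sets replicate 3 apart was not tested.

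**Figure D3:**
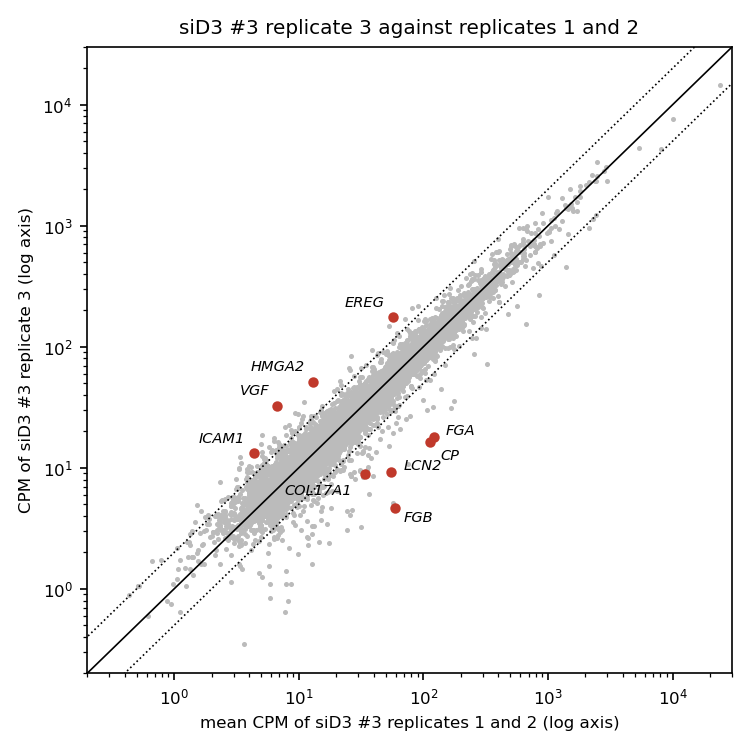
Level in siD3 #3 replicate 3 against the mean of replicates 1 and 2, in cpm on log axes, for 11324 genes at 5 cpm or more in either group. Each point is a gene, the solid line is equality, and the dotted lines are 2-fold. Named red points lie outside the lines: *FGA*, *FGB*, *CP*, *LCN2* and *COL17A1* below, *EREG*, *HMGA2*, *VGF* and *ICAM1* above.

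The siRNA response was then set beside that of the shRNAs in a model of 17 libraries with a mean for each group, in which the siD3 #3 effect minus the mean of the shD3 #1 and shD3 #4 effects was tested. Delivery and harvest day differ between them together with the sequence, so these cannot be told apart. Of 18672 genes tested, 1760 (9.43%) had a higher and 1329 (7.12%) a lower effect under the siRNA, at the same thresholds, and the median difference was 0.03. *THUMPD3* itself fell by 2.55 in siD3 #3, by 0.99 in shD3 #1 and by 1.69 in shD3 #4 on the log2 scale, a difference of -1.21 (0.10 SE, adjusted p = 3.98e-09).

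The cell cycle lists fell further under the siRNA. The effect was lower in 39 of 45 kinetochore genes, 35 of 36 spindle genes, 18 of 20 cyclin, CDK and phosphatase genes, 45 of 49 replication genes and 43 of 47 histones. Over all genes tested the share with a lower effect was 7.12%. The medians of these lists were -3.14, -2.99, -2.69, -2.11 and -3.81 in siD3 #3, -0.97, -1.03, -0.83, -0.64 and -1.28 in shD3 #1, and -0.50, -0.50, -0.45, -0.47 and -0.55 in shD3 #4. *H4C13* fell by 5.16, 1.54 and 0.86 in siD3 #3, shD3 #1 and shD3 #4, a difference of -3.96 (0.25 SE, adjusted p = 1.75e-10), and *H2BC10*, *H1-3*, *H4C9* and *H2AC16* were the next lowest, with differences of -3.72, -3.69, -3.66 and -3.62. The siRNA also left the least *THUMPD3* mRNA, and the part of the depth of knockdown in these differences was not tested.

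For the lists that rose, the shares to compare with are the 9.43% of all genes with a higher siRNA effect and the 7.12% with a lower one. The p53 targets had a higher siRNA effect in 25 of 34 members, with medians of 1.68 in siD3 #3, 0.86 in shD3 #1 and 0.02 in shD3 #4. *CDKN1A* rose by 3.51 in siD3 #3 and by 2.05 in shD3 #1 and was at 0.18 in shD3 #4, where it was not called, a difference of 2.40 (0.12 SE, adjusted p = 1.7e-11). *MDM2* had a difference of 2.46 (0.10 SE, adjusted p = 7.97e-13). Interferon-stimulated genes had a higher effect in 22 of 42 members and a lower one in 1, with medians of 1.12, 0.25 and 0.25, and *TRIM22* a difference of 3.46 (0.34 SE, adjusted p = 1.26e-07). Cytokines had a higher effect in 10 of 22 members, with medians of 1.23, 0.40 and -0.44, and collagens in 11 of 29, with medians of 0.69, 0.64 and 0.33. The 14 interferon-stimulated genes counted without siControl replicate 1 are fewer than the 22 by more than 1.5 times, and with shD3 #1 alone as the reference 7 collagens were higher and 6 lower.

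The 5 protein-coding genes with the highest difference were *C3*, *TRIM22*, *DEGS2*, *LCN2* and *ACER2*. *C3*, the central complement protein, was at 40.2 and 30.3 cpm in siControl and 296, 304 and 211 cpm in siD3 #3, and its log2 fold changes were 2.93 in siD3 #3, -2.92 in shD3 #1 and 1.46 in shD3 #4, so that the shRNAs moved it in opposite directions (difference 3.66, 0.20 SE, adjusted p = 3.75e-11). *ACER2*, a ceramidase of the Golgi and a p53 target, was at 4.36 and 4.57 cpm in siControl and 47.7, 47.7 and 46.8 cpm in siD3 #3, with little spread, and its values were 3.41, 1.48 and -0.05 (difference 2.69, adjusted p = 4.48e-12). *LCN2* had values of 2.74 in siD3 #3, -2.02 in shD3 #1 and 1.76 in shD3 #4, so that the shRNAs again moved it in opposite directions, both called (difference 2.86, 0.62 SE, adjusted p = 0.00143). The sphingolipid hydroxylase *DEGS2* had values of 2.12, -2.77 and 0.57, of which shD3 #1 alone was called among the shRNAs (difference 3.22, 0.65 SE, adjusted p = 0.000797). Against shD3 #4 alone neither difference was called, at 0.97 for *LCN2* (adjusted p = 0.304) and 1.55 for *DEGS2* (adjusted p = 0.104). In both genes replicate 3 of siD3 #3 was far below the other knockdown libraries, and *DEGS2* was not called in siD3 #3 against siControl (adjusted p = 0.0786) except without replicate 3 (2.62, adjusted p = 2.04e-05). The call of *LCN2* was lost without siControl replicate 1 or 2 or siD3 #3 replicate 1 or 2, with an adjusted p of 0.0563 to 0.176.

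**Figure D4:**
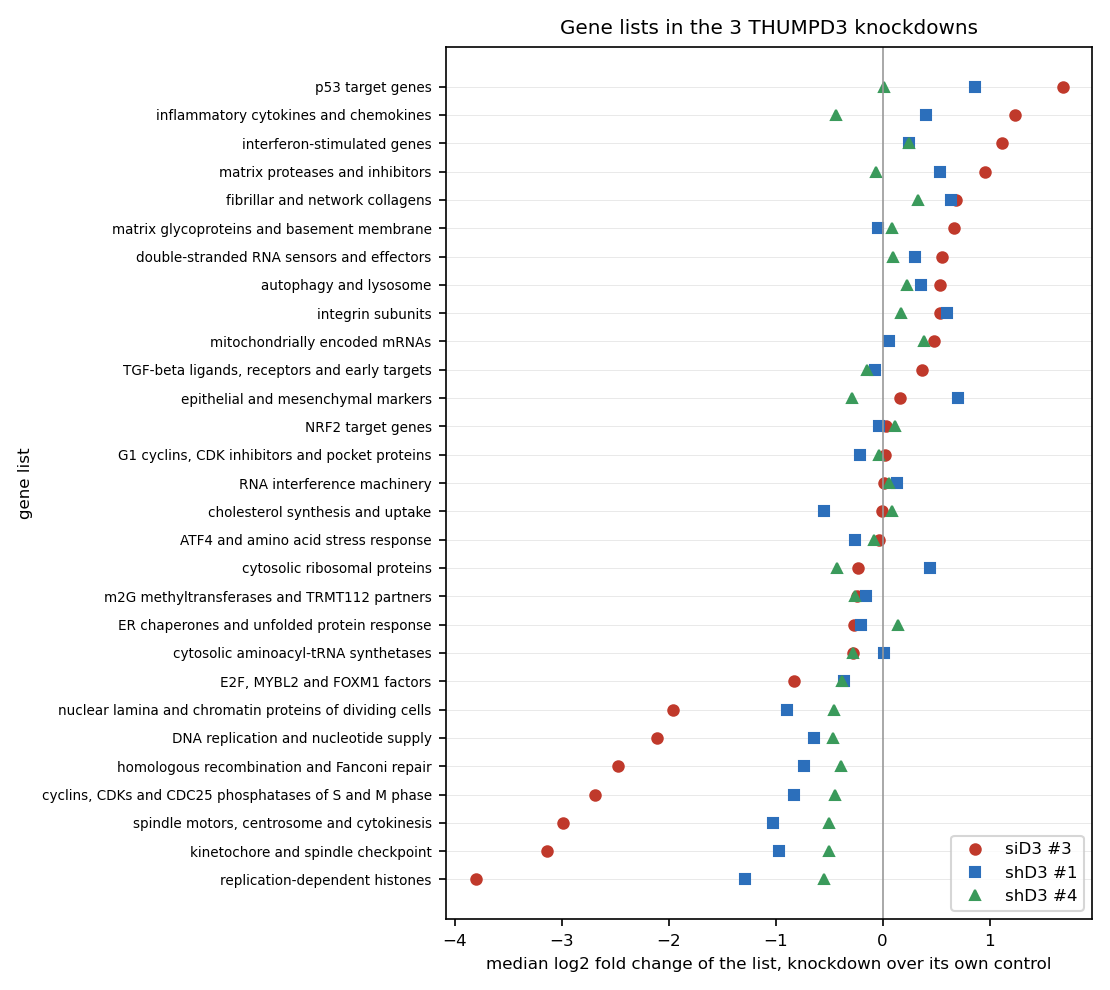
Median log2 fold change of each gene list in siD3 #3 (red circles), shD3 #1 (blue squares) and shD3 #4 (green triangles), each over its own controls, from the model of 17 libraries. The division cycle lists lie lowest in siD3 #3, between -3.81 for histones and -2.11 for replication genes, and p53 targets highest, at 1.68.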

How the data were processed

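Total RNA of A549 cells was depleted of ribosomal RNA and sequenced from directional libraries. The deposited values are raw counts of reads per gene, which the authors made by trimming with Trimmomatic 0.40 and aligning with STAR 2.7.10a to GRCh38.p14, counting during alignment. The versions are those of the submitters' processing notes. The methods name a RefSeq annotation, but the table carries Ensembl gene identifiers, so symbols and positions came from GENCODE 44, whose release may differ from the one counted on (61757 of 61806 genes matched, holding 99.986% of counts). A second table of 6 deeper shRNA libraries was not used here.

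Groups followed the sample labels, and the members and gene lists were chosen with earlier results of these data known. Counts were filtered with filterByExpr, normalised by TMM and tested with edgeR 4.0.16 (R 4.3.3) quasi-likelihood F tests, over the 5 siRNA libraries for siD3 #3 against siControl and over 17 libraries for the difference from the shRNAs, with Benjamini-Hochberg adjustment. SE is the fold change divided by the square root of F. The study tested counts with DESeq2, which was an alternative here (1.42.0). The labels give no separate cultures beyond calling the samples biological replicates, so p-values measure the spread between these samples. In simulated counts for siD3 #3 against siControl, 90% of 2-fold and 100% of 4-fold changes were recovered over 16511 genes. For the difference from the shRNAs it was 73% and 99% over 17853 genes. The simulation gave every gene the same dispersion, changed no gene of very low level and held no divergent replicate. Recovery of genes near the floor, or with the spread of replicate 3, was therefore not tested.

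Genes named are the THUMPD3 group, the 12 highest and 12 lowest protein-coding genes past both thresholds with no overlap between groups and at least 5 cpm in the higher group, the 3 highest and 3 lowest called genes of a list with its transcription factors, sensors, inhibitors and ligands, FN1, LAMB3, FBN1 and TNC, the 5 highest and 5 lowest differences from the shRNAs, and the most abundant gene of a library. Not every gene the rule allows is named, and genes outside it, examples of a list, were chosen after their values were seen. Some genes of the lists are counted but not reported here by name. Promoter sequences are RefSeq windows. Ratios of counts use library sizes without TMM adjustment, and their exact 95% intervals cover counting error only. Alternatives were DESeq2, its size factors in edgeR, other filters, each library left out, the replicate number as a block, a test against 1.5-fold (glmTreat), a 2-fold threshold, 1 fit of 17 libraries, either shRNA alone as the reference, and a promoter window of 100 bases. Scripts used Python 3.11.15 with pandas 2.3.3, scipy 1.17.1 and matplotlib 3.10.9.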

Additional observations from a re-analysis of the deposited data

Results flagged for a closer look

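The siRNA and shRNA effects differed in the test of the difference itself (edgeR, adjusted p under 0.05 and at least 1.5-fold) for 1760 genes with a higher and 1329 with a lower siRNA effect. The difference on the log2 scale, siRNA minus mean shRNA, was -1.21 for *THUMPD3*, 2.40 for *CDKN1A* and 2.46 for *MDM2*. Among the genes with the highest differences it was 3.66 for *C3*, 3.46 for *TRIM22*, 3.22 for *DEGS2*, 2.86 for *LCN2* and 2.69 for *ACER2*. Among the lowest, all of them histones, it was -3.96 for *H4C13*, -3.72 for *H2BC10*, -3.69 for *H1-3*, -3.66 for *H4C9* and -3.62 for *H2AC16*. Delivery, harvest day and siRNA or shRNA sequence cannot be told apart in these differences. The siRNA groups have 3 and 2 libraries, too few for an outlier test.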

How the results depend on the processing

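The counts of genes called for siD3 #3 against siControl ranged from 1230 to 2315 higher and from 1347 to 1795 lower when 1 library was left out. Tested against 1.5-fold with glmTreat, 904 were higher and 766 lower, and at a 2-fold threshold 1338 and 787. DESeq2, its size factors, other filters and 1 fit of 17 libraries stayed within 1.5 times. For the difference from the shRNAs, glmTreat gave 657 higher and 594 lower, a 2-fold threshold 1059 and 698, and shD3 #1 alone as the reference 2192 lower. These tests ask for larger changes by construction, except the last, for which the cause was not tested. In the 100 bases before the start, TTTGAA was present in 28.05% and CCAAT in 63.41% of mitotic genes, and the interferon-stimulated response element in 42.86% of interferon-stimulated genes, a shorter window by construction. Of the named genes 5 changed sign, none of which had passed. *TNC* ranged from -0.011 to 0.94 with 1 library left out, *MAD1L1* from -0.025 to 0.50 (-0.40 with the replicate block), *VIM* from -0.18 to 0.14 (-0.17 with the block, -0.0065 with no filter), *FGB* from -0.75 to 1.24 (0.67 with the block) and *EREG* from -1.01 to 0.055.

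Same-numbered siRNA libraries deviated from their group means with correlations of 0.156 and -0.131. With 2 siControl libraries the control deviations mirror each other, so these values cannot decide whether the replicate numbers are a pairing. With the replicate number as a block, 2504 genes were higher and 1766 lower, *THUMPD3* was at -2.48, and the difference from the shRNAs gave 1780 higher and 1410 lower. Lone controls, low counts in siControl and the spread of siD3 #3 replicate 3 limit what can be said of genes near the thresholds.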
